A study of Mus musculus with 12 samples.

Results

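The genes described here encode aminoacyl-tRNA synthetases. They were chosen by name from a list of 35 symbols, and all 35 were found among the 52636 genes of the count table through the GENCODE M21 annotation of mouse. Of these, 19 encode cytosolic enzymes and 16 encode mitochondrial enzymes. Expression was measured by RNA sequencing of polyadenylated RNA in microglia grown from the brains of wild-type C57BL/6 pups 1 to 2 days old. The cells were shaken off mixed glial cultures after 10 to 13 days, seeded in wells (50000 cells, with 2.5 ng CSF1 added as a survival factor) and treated for 24 h. The 3 groups received vehicle, 5 µg of full-length NfL or 5 µg of coiled-coil NfL. NfL, the neurofilament light chain, is an intermediate filament protein of axons that reaches extracellular fluid when axons are damaged. Each group had 4 libraries, 1 from each of 4 batches. Whether a batch was a separate culture is not given in the labels, and p-values here rest on the spread between libraries, which may be technical.

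An aminoacyl-tRNA synthetase joins one amino acid to its matching tRNAs and so supplies the ribosome with charged tRNA. Cytosolic and mitochondrial protein synthesis mostly use separate enzymes, all encoded in the nucleus, and a gene symbol ending in 2 usually marks the mitochondrial enzyme. Gars and Kars are exceptions, since 1 gene each makes both forms for glycine and for lysine. When amino acids run short or the endoplasmic reticulum is stressed, kinases of eIF2α raise translation of the transcription factor ATF4, and several cytosolic synthetase genes are among its known targets. Wars, for tryptophan, is also known as a gene induced by interferon-gamma.

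Short promoter stretches of 3 cytosolic genes are shown because they hold the core of the amino acid response element, the sequence bound by ATF4 with C/EBP partners. They come from RefSeq on GRCm38.p6, run 5′ to 3′ on the strand of the gene, and carry the match in capitals. The core was searched as TGATGNAA on both strands, and all 3 matches read as its reverse complement. Aars is for alanine, Gars for glycine and Tars for threonine.
Aars, chr8:111033700-111033767, + strand: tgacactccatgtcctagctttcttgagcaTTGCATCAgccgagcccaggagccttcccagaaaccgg
Gars, chr6:55037941-55038000, + strand: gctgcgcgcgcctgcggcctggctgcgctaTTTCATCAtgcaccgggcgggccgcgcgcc
Tars, chr15:11399659-11399703, - strand: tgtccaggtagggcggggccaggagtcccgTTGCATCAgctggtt
The matches begin 112, 30 and 15 bases before the RefSeq start of Aars, Gars and Tars. The Aars stretch lies inside the longer GENCODE M21 model of the gene (chr8:111033144-111057664), which begins further upstream.

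Promoter windows of 250 bases before to 50 bases after the start were matched for 26 of the 35 genes, 12 cytosolic and 14 mitochondrial. The core TGATGNAA was found in 5 of the 12 cytosolic genes (Aars, Gars, Iars, Tars and Yars) and in 0 of the 14 mitochondrial genes, while 3.97% of 32851 windows of the same length held it. The cyclic AMP response element TGACGTCA was in 0 of 12 and 0 of 14 windows, against 1.79% of all windows. The core of the site of NRF1, a regulator of mitochondrial genes, was searched on both strands as well and was in 3 of 12 cytosolic genes (Farsb, Kars and Tars) and 2 of 14 mitochondrial genes (Iars2 and Mars2), against 4.6% of all windows. A match of letters describes the window and says nothing of binding.

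Levels are given as CPM (counts scaled to a common library total with TMM factors) and, for comparison between genes, as RPKM (CPM per kilobase of exon). Total counts ran from 20162427 to 31048044 per library, and the synthetase genes held 0.254% to 0.41% of them. All 35 genes passed the filter on low counts. In vehicle, the mean RPKM of the cytosolic genes ran from 6.69 for Yars (tyrosine) to 65.5 for Nars (asparagine). After Nars the order was Rars (arginine, 28.6 RPKM), Gars (25.1 RPKM) and Sars (serine, 22.9 RPKM). The mitochondrial genes lay between 0.873 RPKM for Mars2 (methionine) and 8.27 RPKM for Iars2 (isoleucine), apart from Lars2 (leucine) at 61.2 RPKM. In 13 of the 14 pairs of a cytosolic and a mitochondrial gene for the same amino acid, the cytosolic RPKM was higher in vehicle, by 1.79 times for Yars over Yars2 up to 51.7 times for Nars over Nars2. Lars over Lars2, at 0.205, was the exception. Eprs, which serves both glutamate and proline, was not put in a pair. Whether all reads counted for Lars2 come from its mRNA was not tested.

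With full-length NfL, transcripts of nearly every cytosolic enzyme rose, and no mitochondrial enzyme passed the test. Of the 19 cytosolic genes, 17 were higher than in vehicle and 0 were lower at an adjusted p under 0.05 (edgeR quasi-likelihood F test, Benjamini-Hochberg over 14687 genes), which is 89.5% of them. Among all genes tested, 14% were called higher, 10.9% lower and 24.9% in either direction. Of the 16 mitochondrial genes, 0 were called in either direction by edgeR, and DESeq2 called 1 higher (14.8% of the genes it tested were called higher). At an unadjusted p under 0.05, 2 mitochondrial genes were higher, beside 3053 of all 14687 genes tested. The median log2 change was 0.51 for the cytosolic genes (from −0.05 to 1.59) and 0.06 for the mitochondrial genes (from −0.19 to 0.39), beside −0.02 for all genes tested. The 4 full-length libraries lay above all 4 vehicle libraries for 16 cytosolic and 2 mitochondrial genes, against 14.5% of all genes tested.

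**Figure D1:**
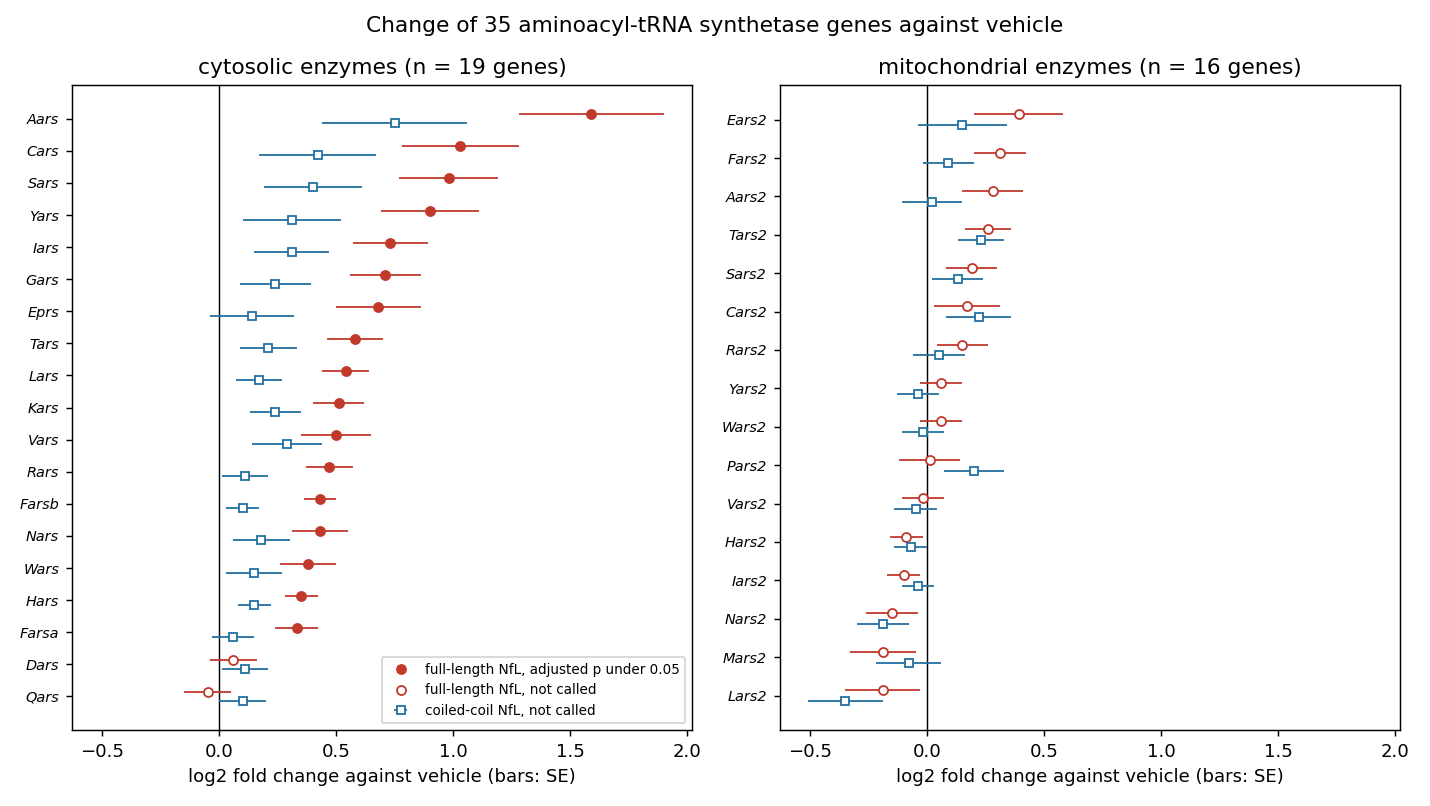
Log2 fold change against vehicle (x axis) of each cytosolic (left) and mitochondrial (right) synthetase gene with full-length NfL (circles, filled where the adjusted p is under 0.05) and coiled-coil NfL (squares); bars are the SE. Of 19 cytosolic genes, 17 have filled circles, and none of the 16 mitochondrial genes has one.

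The sum over the 19 cytosolic genes was 1680, 1840, 1820 and 1770 CPM in vehicle libraries 1 to 4 and 2290, 3510, 2560 and 2860 CPM in the full-length libraries of the same batches. Every full-length sum lay above every vehicle sum, and batch 2 had the highest. The sum over the 15 mitochondrial genes without Lars2 was between 254 and 272 CPM in all 12 libraries. It was 262, 259, 254 and 262 CPM in vehicle and 272, 266, 267 and 268 CPM with full-length NfL. These full-length sums also lay above every vehicle sum, by a small margin. Within batches 1 to 4, the median log2 change of the cytosolic genes was 0.49, 0.62, 0.37 and 0.59, with 18, 18, 18 and 17 of 19 genes higher. For the mitochondrial genes it was 0.15, −0.02, 0.05 and 0.01. In bulk RNA, more RNA per cell and a change in which cells were present cannot be told apart.

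**Figure D2:**
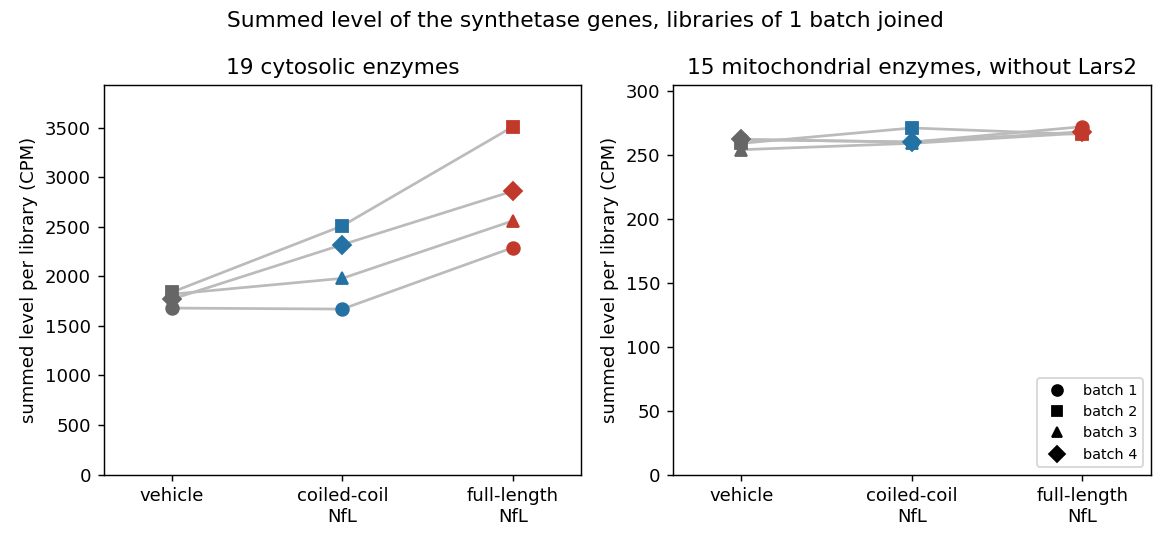
Summed level (CPM) per library of the 19 cytosolic genes (left) and the 15 mitochondrial genes without Lars2 (right), by treatment; lines join the libraries of 1 batch and the symbols mark the batches. The cytosolic sums with full-length NfL start at 2290 CPM, above the highest vehicle sum of 1840 CPM. All mitochondrial sums span 254 to 272 CPM, and those with full-length NfL start at 266 CPM, above the highest vehicle sum of 262 CPM.

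Aars, the alanine enzyme, had the largest change of the 35 genes. It was at 139, 169, 145 and 140 CPM in vehicle and at 300, 663, 349 and 468 CPM with full-length NfL. The groups did not overlap, and the highest value was in batch 2. The change was 1.59 ± 0.31 (log2, SE; 3-fold), with an edgeR adjusted p of 0.00474 and n = 4 per group. The exons of Aars share 14.3% of their length with Exosc6 on the same strand, and Exosc6 was listed at 0 CPM. The counting tool is not named, so this value does not show whether reads from Exosc6 were counted for Aars.

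Sars, the serine enzyme, was at 120, 115, 124 and 111 CPM in vehicle and at 150, 328, 217 and 235 CPM with full-length NfL. All full-length libraries were higher, but batch 1 changed by 0.31 and batch 2 by 1.51. The fitted change was 0.98 ± 0.21 (log2, SE), with an edgeR adjusted p of 0.00747. Cars (cysteine) and Yars (tyrosine) also stood near this size, at 1.03 ± 0.25 and 0.90 ± 0.21 (edgeR adjusted p 0.0111 and 0.0105). Both were higher in 4 of 4 batches.

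Gars, which serves both compartments, was at 71.9, 80.9, 79.8 and 81.1 CPM in vehicle and at 102, 162, 118 and 131 CPM with full-length NfL. It changed by 0.71 ± 0.15 (log2, SE; edgeR adjusted p 0.00595) with no overlap between the groups. Kars, the other gene with both forms and a subunit of the multisynthetase complex, was at 59.9, 63.7, 73.9 and 64.7 CPM in vehicle and at 86.1, 95.8, 92.7 and 98.9 CPM with full-length NfL. The full-length libraries were again all higher, by 0.51 ± 0.11 (log2, SE; edgeR adjusted p 0.00747). Both genes that also supply mitochondria belonged to the 17 that rose. The annotated pseudogene Kars-ps1 was listed at 0 CPM.

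The multisynthetase complex gathers several cytosolic synthetases on a scaffold of 3 further proteins. Of its 7 synthetase genes on the list (Dars, Eprs, Iars, Kars, Lars, Qars and Rars), 5 rose, and the 2 that did not pass the test were Dars and Qars. Among all genes tested, 14% were called higher. Iars, for isoleucine, was at 85.4, 98.7, 92.9 and 98.8 CPM in vehicle and at 142, 191, 134 and 158 CPM with full-length NfL. The groups were separate, and the change was 0.73 ± 0.16 (log2, SE; edgeR adjusted p 0.0068).

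Lars, for leucine, was at 65.3, 71, 68.4 and 65 CPM in vehicle and at 90.8, 110, 92.6 and 98.4 CPM with full-length NfL, a change of 0.54 ± 0.10 (log2, SE; edgeR adjusted p 0.00292). Rars, for arginine, was at 80.3, 94.3, 102 and 92.2 CPM and at 113, 144, 122 and 132 CPM, a change of 0.47 ± 0.10 (edgeR adjusted p 0.00532). Neither gene had a full-length library within the vehicle range. Eprs encodes a fusion of the glutamate and proline enzymes. It was at 170, 190, 140 and 189 CPM in vehicle and at 215, 375, 220 and 293 CPM with full-length NfL. The batch 2 library was the highest, and the change was 0.68 ± 0.18 (log2, SE; edgeR adjusted p 0.0193). Without full-length replicate 2 Eprs changed by 0.49 (adjusted p 0.0646) and without full-length replicate 4 by 0.65 (adjusted p 0.0543), so its call rested on each of these libraries.

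Dars, for aspartate, was at 81.6, 109, 93.6 and 108 CPM in vehicle and at 90.7, 111, 102 and 105 CPM with full-length NfL. Its change was 0.06 ± 0.10 (log2, SE), with a 95% interval from −0.17 to 0.29 and an edgeR adjusted p of 0.685. Qars, for glutamine, was at 124, 105, 130 and 112 CPM and at 114, 103, 134 and 103 CPM, a change of −0.05 ± 0.10 with an interval from −0.29 to 0.18 (edgeR adjusted p 0.72). For both genes the ranges of the groups overlapped, and the intervals end below the median change of the cytosolic genes.

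Outside the complex, 12 of 12 cytosolic genes were called higher, when 14% of all genes tested were called higher. Farsb and Farsa encode the β and α subunits of the phenylalanine enzyme. Farsb had the smallest p of the 35 genes, at 53.2, 57, 56.2 and 55.6 CPM in vehicle and 71, 83.1, 69.7 and 74.8 CPM with full-length NfL. Its libraries varied little within each group, and the change was 0.43 ± 0.07 (log2, SE; edgeR adjusted p 0.00202). Its exons overlap Sgpp2 on the opposite strand by 9.47% of their length, and Sgpp2 averaged 0.145 CPM in vehicle and 0.237 CPM with full-length NfL. Farsa changed by 0.33 ± 0.09 (edgeR adjusted p 0.0199), but its groups overlapped, because full-length replicate 3 was at 48.2 CPM and vehicle replicate 3 at 49.9 CPM.

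Hars, for histidine, was at 51.6, 52.5, 56.8 and 52.9 CPM in vehicle and at 69.5, 67.3, 67.1 and 68.7 CPM with full-length NfL. The change of 0.35 ± 0.07 (log2, SE; edgeR adjusted p 0.00392) was among the smaller ones, with narrow spread in both groups. Tars, for threonine, was at 58.1, 61.4, 61.9 and 65 CPM in vehicle and at 82.4, 104, 83.6 and 97.7 CPM with full-length NfL. It changed by 0.58 ± 0.12 (log2, SE; edgeR adjusted p 0.00519) with no overlap. Hars and the mitochondrial Hars2 overlap on opposite strands, by 7.97% of the exon length of Hars.

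Wars was at 64.3, 72, 79.3 and 58.5 CPM in vehicle and at 82.8, 96.2, 90.7 and 87.9 CPM with full-length NfL. The lowest full-length value was just above the highest vehicle value, and the change was 0.38 ± 0.12 (log2, SE; edgeR adjusted p 0.0343). Vars (valine) changed by 0.50 ± 0.15 (adjusted p 0.0318) and Nars by 0.43 ± 0.12 (adjusted p 0.0223). These calls and that of Farsa depended on single libraries. Wars lost its call when vehicle replicate 1 or 4, or full-length replicate 2, 3 or 4, was left out, with changes of 0.32 to 0.40. Vars lost it without full-length replicate 1, 2 or 3 or vehicle replicate 1, 2 or 4 (0.43 to 0.54), Nars without full-length replicate 2 or vehicle replicate 1, 2 or 4 (0.32 to 0.43), and Farsa without full-length replicate 2 or vehicle replicate 1 or 4 (0.30 to 0.31). With the batch as a block, edgeR called 17 cytosolic genes higher, when 21.4% of all genes tested were called higher.

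**Figure D3:**
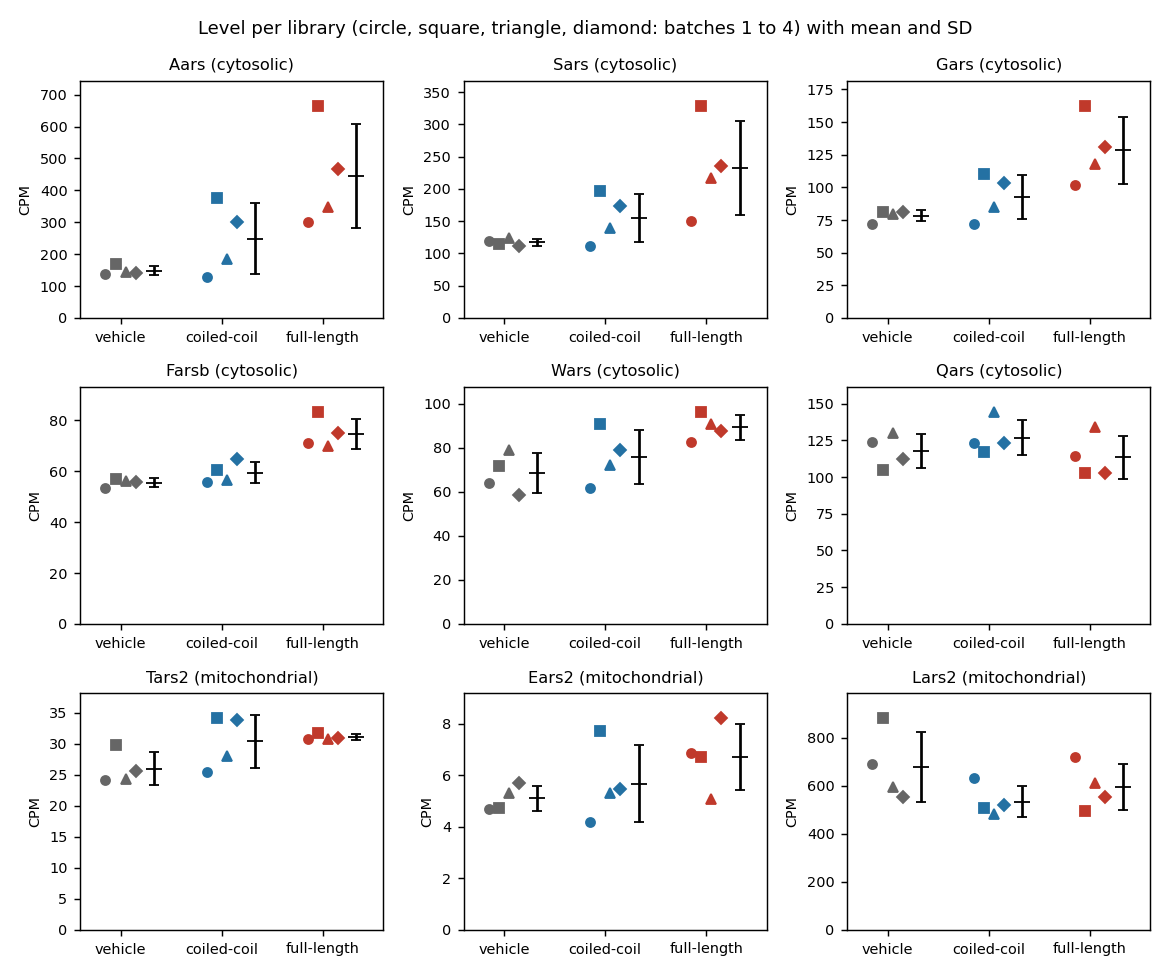
Level (CPM, y axis from 0) of 9 synthetase genes in each of the 12 libraries, by treatment, with symbols for the batches and bars for the mean ± SD of 4 libraries. Aars rises from 139 to 169 CPM in vehicle to 300 to 663 CPM with full-length NfL, while Qars, Ears2 and Lars2 overlap between the groups.

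Among the mitochondrial enzymes, Ears2 (glutamate) had the largest change. It was at 4.69, 4.73, 5.3 and 5.71 CPM in vehicle and at 6.86, 6.71, 5.06 and 8.21 CPM with full-length NfL. The batch 3 library was within the vehicle range, and the change of 0.39 ± 0.19 (log2, SE) did not pass the test (edgeR adjusted p 0.156). Mars2 was at 10.1, 10.3, 9.12 and 9.9 CPM and at 10.8, 7.27, 7.87 and 8.59 CPM, a change of −0.19 ± 0.14 with overlapping groups (edgeR adjusted p 0.337). Lars2 was at 688, 880, 593 and 551 CPM in vehicle and at 721, 495, 612 and 554 CPM with full-length NfL. Its groups overlapped as well, at −0.19 ± 0.16 (edgeR adjusted p 0.399).

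Tars2 (threonine) was at 24.1, 29.8, 24.3 and 25.6 CPM in vehicle and at 30.8, 31.8, 30.8 and 31 CPM with full-length NfL, separate from vehicle in all 4 libraries. Its change of 0.26 ± 0.10 (log2, SE) had an edgeR adjusted p of 0.08. Fars2 (phenylalanine) changed by 0.31 ± 0.11 (adjusted p 0.0597) and Aars2 (alanine) by 0.28 ± 0.13 (adjusted p 0.145). With the batch as a block, edgeR called Fars2 and Tars2 higher (adjusted p 0.0305 and 0.0171). These were 2 of 16, when 21.4% of all genes tested were called higher. The other 10 mitochondrial genes changed by −0.15 to 0.19 (log2), and none was called with or without the block.

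The 14 pairs compared here serve the same amino acid and cover 13 amino acids, since Farsa and Farsb share the partner Fars2. Eprs, for glutamate and proline, was not paired with Ears2 or Pars2, the mitochondrial genes for these amino acids. With full-length NfL the cytosolic gene had the larger change in 14 of 14 pairs. The difference in log2 change ran from 0.02 for Farsa and 0.12 for Farsb against Fars2 to 0.86 for Cars against Cars2 and 1.31 for Aars against Aars2. Differences within pairs were not tested.

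**Figure D4:**
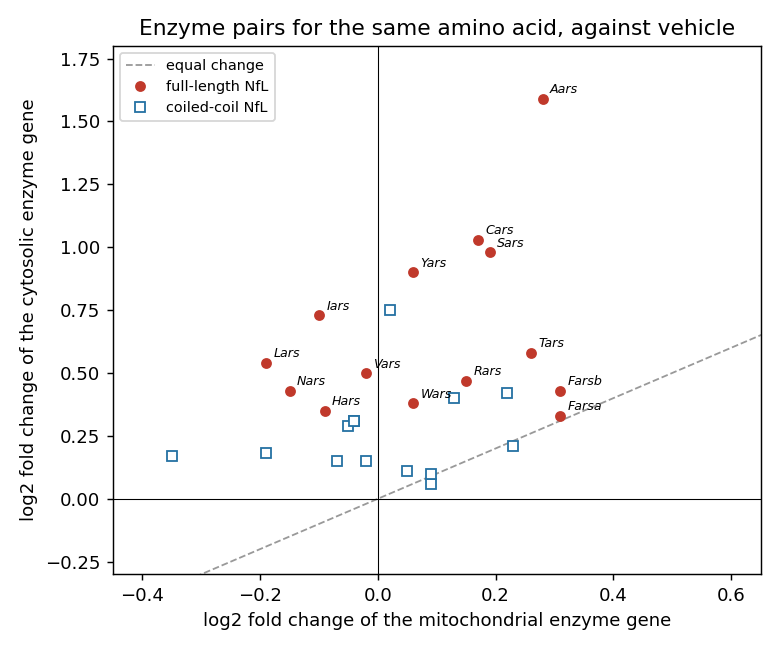
Log2 change against vehicle of the cytosolic gene (y axis) and of its mitochondrial partner (x axis) for 14 pairs, with full-length NfL (circles, labelled by the cytosolic gene) and coiled-coil NfL (squares); the dashed line marks equal change. All 14 circles lie above the line, Farsa by 0.02 and Aars by 1.31.

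Coiled-coil NfL at the same amount gave no called synthetase gene. edgeR called 0 of 14687 genes against vehicle (0% of all genes tested; 675 higher and 407 lower at an unadjusted p under 0.05), while DESeq2 called 27 of 4984 (0.542%). Of the 19 cytosolic genes, 3 were higher at an unadjusted p under 0.05 (Aars, Hars and Kars), and DESeq2 called 0. The fitted change was above 0 in 19 of 19 cytosolic genes, with a median of 0.18 (log2; from 0.06 to 0.75), and in 8 of 16 mitochondrial genes, with a median of 0.00. Of all genes tested, 50.9% had a fitted change above 0. Within batches 1 to 4, the cytosolic median was −0.01, 0.34, 0.11 and 0.33, and 7, 18, 15 and 19 of 19 genes were higher.

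With coiled-coil NfL, Aars was at 130, 377, 185 and 302 CPM. The batch 1 library was below all vehicle libraries and the other 3 were above them, so that the change of 0.75 ± 0.31 (log2, SE; 95% interval 0.05 to 1.45) had an edgeR adjusted p of 0.674. Sars was at 111, 197, 140 and 173 CPM, Gars at 72.3, 110, 85.2 and 103 CPM, and Kars at 59.5, 87.1, 79.3 and 85 CPM. In each of these genes batch 1 stayed within or next to the vehicle values, and batches 2 and 4 were the highest. Their changes were 0.40 ± 0.21, 0.24 ± 0.15 and 0.24 ± 0.11 (edgeR adjusted p 0.718, 0.758 and 0.676).

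Iars was at 85.9, 145, 102 and 132 CPM with coiled-coil NfL, Lars at 62, 85, 74.9 and 81.8 CPM, and Tars at 57.6, 82.5, 64.6 and 80.8 CPM. Rars was at 87.9, 102, 102 and 106 CPM, Farsb at 55.8, 60.5, 56.4 and 64.8 CPM, and Hars at 53.3, 62.8, 56.2 and 64.4 CPM. All 6 overlapped with vehicle and changed by 0.10 to 0.31 (log2; edgeR adjusted p 0.676 to 0.828). Eprs was at 168, 227, 156 and 205 CPM (0.14 ± 0.18) and Wars at 61.8, 90.8, 72.4 and 78.9 CPM (0.15 ± 0.12). Of the mitochondrial genes, Ears2 was at 4.2, 7.73, 5.32 and 5.45 CPM (0.15 ± 0.19), and Mars2 at 11.3, 8.22, 8.33 and 9.44 CPM (−0.08 ± 0.14). Lars2 had the lowest fitted change of the 35 genes, −0.35 ± 0.16 (edgeR adjusted p 0.676), at 630, 505, 480 and 520 CPM.

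Compared directly, full-length NfL gave a higher level than coiled-coil NfL for 1 of the 19 cytosolic genes by edgeR, when 1.38% of all genes tested were called higher. That gene was Farsb, at 0.33 ± 0.07 (log2, SE; edgeR adjusted p 0.0368), and its groups did not overlap. The call was lost when any of 6 libraries was left out: replicates 2 and 4 of vehicle, 2 and 4 of full-length and 1 and 3 of coiled-coil NfL (changes 0.28 to 0.34, adjusted p 0.0535 to 0.115). At an unadjusted p under 0.05, 14 cytosolic genes were higher with the full-length protein, beside 1695 of all 14687 genes tested. DESeq2 called 4 cytosolic genes higher (5.32% of the genes it tested were called higher). The difference in Aars was 0.84 ± 0.31 with a 95% interval from 0.14 to 1.54 (edgeR adjusted p 0.144). The median difference was 0.36 for the cytosolic and 0.05 for the mitochondrial genes, of which 0 were called (0 also at an unadjusted p under 0.05 and by DESeq2).

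The batch as a block changed this comparison. edgeR then called 12 of the 19 cytosolic genes higher with full-length than with coiled-coil NfL, when 8.99% of all genes tested were called higher. Aars differed by 0.87 ± 0.17 (adjusted p 0.00687), Eprs by 0.53 ± 0.08 (adjusted p 0.00325) and Yars by 0.59 ± 0.10 (adjusted p 0.00363). The 7 not called were Dars, Farsa, Hars, Nars, Qars, Vars and Wars. Within batches 1 to 4, the median difference of the cytosolic genes was 0.44, 0.39, 0.31 and 0.26, with 17, 18, 17 and 16 of 19 genes higher with the full-length protein. The comparisons with vehicle share their vehicle libraries, so the responses to the 2 proteins are not independent of each other.

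The scaffold of the multisynthetase complex has 3 genes, of which 2 were higher with full-length NfL, when 14% of all genes tested were called higher. Eef1e1 was at 13.2, 16.8, 15.4 and 18.7 CPM in vehicle and at 23.2, 31.2, 18.1 and 30.7 CPM with full-length NfL, a change of 0.69 ± 0.19 (log2, SE; edgeR adjusted p 0.0232). Its groups overlapped through full-length replicate 3. Aimp2 changed by 0.48 ± 0.16 (adjusted p 0.0477), and Aimp1 by 0.17 ± 0.10 (adjusted p 0.233). Both calls were lost without vehicle replicate 1 or without full-length replicate 2 or 4, and that of Aimp2 also under upper-quartile scaling, with a GC and length trend removed, or without full-length replicate 1, vehicle replicate 2, 3 or 4, or coiled-coil replicate 3 or 4.

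In a list of 33 genes of the amino acid response and targets of ATF4, 32 were tested, 16 were higher and 4 lower with full-length NfL, with a median log2 change of 0.62. Of all genes tested, 14% were higher and 10.9% lower, so that the lower count was near the background. The synthetase genes are not on this list. Mthfd2, an enzyme of mitochondrial folate metabolism, rose by 1.81 ± 0.34 (log2, SE; edgeR adjusted p 0.00386), Aldh18a1, of proline synthesis, by 1.17 ± 0.21 (adjusted p 0.00281), Nupr1, a stress-induced chromatin protein, by 2.10 ± 0.42 (adjusted p 0.00502), and Eif4ebp1, which represses cap-dependent translation, by 0.87 ± 0.18 (adjusted p 0.00546). Cebpg, a partner of ATF4 in binding DNA, fell by 0.44 on the log2 scale (adjusted p 0.00483). Slc1a5 was also lower, at −0.83 ± 0.26 (edgeR adjusted p 0.0394). So were the eIF2α kinase genes Eif2ak3, at −0.56 ± 0.14, and Eif2ak4, at −0.28 ± 0.09 (edgeR adjusted p 0.0149 and 0.0354). The calls of Slc1a5 and Eif2ak4 were lost without certain single libraries. With the block 19 were higher and 5 lower, beside 21.4% and 22.4% of all genes tested. Leaving out 1 library left 7 to 18 genes higher, and the lowest counts were 7 without full-length replicate 2 and 10 without vehicle replicate 1 or 4. The count of lower genes was then 2 to 5, and 2 without full-length replicate 2 or 4 or vehicle replicate 1, 2 or 4.

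Atf4 itself and Asns, the asparagine synthetase, were picked after their values were seen. Atf4 was at 141, 160, 137 and 148 CPM in vehicle, at 183, 452, 232 and 318 CPM with full-length NfL and at 134, 265, 147 and 208 CPM with coiled-coil NfL. Batch 2 was the highest and batch 1 the lowest of the 4 libraries in both treated groups, as for Aars. Same-numbered libraries correlated in general, at 0.31 to 0.73 after removal of group means. How many other genes share this order was not counted, and a link between Atf4 and Aars was not tested. Atf4 rose by 1.01 ± 0.27 (log2, SE) with full-length NfL (edgeR adjusted p 0.0168), a call lost without full-length replicate 2, and Asns by 2.00 ± 0.47 (adjusted p 0.0108).

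Mitochondrial translation has further factors besides the synthetases. Of 21 genes for amidation of mischarged tRNA, formylation, tRNA modification and the factors of initiation, elongation and release, 3 were higher and 0 lower with full-length NfL (median log2 change 0.15), a share near the 14% of all genes tested. Qrsl1, the catalytic subunit of the enzyme that converts glutamate on mitochondrial glutamine tRNA, was at 7.9, 8, 6.35 and 6.48 CPM in vehicle and at 11.1, 13.3, 11 and 12 CPM with full-length NfL. Its groups were separate, at 0.72 ± 0.13 (log2, SE; edgeR adjusted p 0.00312). Trit1, which modifies tRNA, rose by 0.56 ± 0.11 (adjusted p 0.00406), and the elongation factor gene Gfm1 by 0.31 ± 0.07 (adjusted p 0.0126), though not under upper-quartile scaling. With the block 5 were higher and 1 lower, when 21.4% of all genes tested were called higher.

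Of 14 tested genes induced by interferon-gamma, 4 were higher with full-length NfL (median log2 change 0.74), beside 14% of all genes tested. With the block 11 were higher and 1 lower, beside 21.4% and 22.4% of all genes tested. The lower gene with the block was Ciita (edgeR adjusted p 0.00341), with a mean of 0.925 CPM in vehicle and 0.151 CPM with full-length NfL. With no block, 3 to 9 were higher when 1 library was left out. The highest counts were 9 without vehicle replicate 3 and 7 without coiled-coil replicate 1. DESeq2 called 7 higher and 1 lower, and 1 was also lower when full-length replicate 1 was removed. Cxcl9, a chemokine gene, rose by 4.83 ± 0.83 (log2, SE; edgeR adjusted p 0.00238), Cd274, which encodes PD-L1, by 1.54 ± 0.30 (adjusted p 0.00414), the immunoproteasome gene Psmb8 by 1.10 ± 0.26 (adjusted p 0.011), and the GTPase gene Gbp2 by 1.36 ± 0.43 (adjusted p 0.0399). Gbp2 lost its call when vehicle replicate 1, 2 or 4 was left out, and likewise for full-length replicate 2, 3 or 4 and coiled-coil replicate 4. In each of these fits, 3 genes of the list were higher. In none of these 4 lists was a gene called with coiled-coil NfL by edgeR; at an unadjusted p under 0.05, 0, 4, 1 and 1 genes of the scaffold, amino acid response, mitochondrial and interferon-gamma lists were higher, and DESeq2 called 1, in the amino acid response list. The members with the smallest p there were Nupr1 (1.47 ± 0.42, edgeR adjusted p 0.621), Trit1 (0.35 ± 0.11, adjusted p 0.646) and Cxcl9 (adjusted p 0.646).

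The microglial label was checked with fixed marker lists. The 11 microglial markers summed to 11400 to 14200 CPM in vehicle and 10800 to 12300 CPM with full-length NfL, and 2 were called higher and 4 lower. Astrocyte markers summed to 25.5 to 57.8 CPM and 23.9 to 37.6 CPM (0 of 9 called, Gjb6 at 0), oligodendrocyte lineage markers to 243 to 278 CPM and 250 to 264 CPM (1 of 9 higher), and neuronal markers to 17.8 to 59.2 CPM and 8.83 to 28.5 CPM (2 of 7 lower). Fibroblast markers were at or below 5.46 CPM in both groups (0 of 4 called). With the batch as a block, edgeR called 7 of 9 astrocyte, 5 of 9 oligodendrocyte lineage and 7 of 7 neuronal markers lower, when 22.4% of all genes tested were called lower; 2 oligodendrocyte lineage markers were then higher. Endothelial markers summed to 46.1 to 101 CPM and 37.6 to 49.5 CPM (1 of 4 higher, 1 lower, Cldn5 at 0), and markers of border-associated macrophages to 1120 to 2120 CPM and 1090 to 1580 CPM (1 of 5 lower). Transcripts of the mitochondrial genome held 0.4% to 0.518% of the counts in vehicle and 0.21% to 0.372% with full-length NfL. The part of these differences in the synthetase results was not tested.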

How the data were processed

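The authors deposited raw read counts per Ensembl gene for 12 libraries; the submitters' processing notes name GSNAP and GRCm38. For the counting tool and its strand option, the sources used here give no name. Symbols, coordinates and exon lengths come from GENCODE M21. The members and lists were chosen with earlier results of these data known, and the named genes follow a stated order: called members by adjusted p up to 10, plus Wars, Gars, Kars, Eprs, Ears2 and Mars2, and up to 4 called members of each list with 1 in the other direction. The further lower genes of the amino acid response list were added after their values were seen.

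Genes were kept with filterByExpr (14687 genes, 99.9% of counts) and scaled with TMM. All 12 libraries entered 1 edgeR (4.0.16, R 4.3.3) quasi-likelihood model with 9 residual degrees of freedom; tests are two-sided, and p-values were adjusted by Benjamini-Hochberg. The SE comes from the F statistic and 95% intervals from 9 degrees of freedom. The fit was tested on simulated data. Per the labels, each replicate number is a batch, so the numbers pair the libraries. After removal of group means, same-numbered libraries correlated at 0.31 to 0.73 (12 of 12 pairs over 0.1). Alternatives were RLE and upper-quartile scaling, DESeq2 (1.42.0), 2 filters, the replicate block (6 degrees of freedom), only the 2 groups compared, each library left out and, chosen after seeing the data, removal of a GC and length trend with and without the block.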

Additional observations from a re-analysis of the deposited data

Results flagged for a closer look

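In 4 of the 105 groups of 4 libraries looked at (35 genes in 3 groups), 1 library stood far from the other 3, with a gap larger than Dixon's 95% limit for the share of the range; chance gives about 1 in 20. Farsa was at 48.2 CPM in full-length replicate 3, while the other full-length libraries were at 55.5 to 57 CPM. Gars was at 71.9 CPM in vehicle replicate 1, against 79.8 to 81.1 CPM in the other vehicle libraries. Nars was at 298 CPM in vehicle replicate 3, against 280 to 282 CPM. Pars2, the mitochondrial proline enzyme, was at 5.69 CPM in coiled-coil replicate 1, against 6.95 to 7.07 CPM.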

How the results depend on the processing

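The count of 17 cytosolic genes higher with full-length NfL than in vehicle was also 17 under RLE and upper-quartile scaling, DESeq2, both filters, the replicate block and the fit of only the 2 groups. It was 12 to 17 when 1 library was left out, the lowest without full-length replicate 2. The mitochondrial count of 0 became 1 with DESeq2, 2 with the replicate block, 3 with the GC and length trend removed (Aars2, Fars2 and Tars2), 4 with both (Sars2 added) and 0 to 1 without single libraries (Tars2 without vehicle replicate 2, Fars2 without vehicle replicate 3). Of all genes tested, 14.8%, 21.4%, 14.4% and 22.1% were called higher in the first 4 of these settings. For full-length against coiled-coil NfL, the cytosolic count of 1 became 12 with the replicate block, 12 with the block plus that trend removed, 4 with DESeq2, 0 with upper-quartile scaling, with no filter, with only the 2 groups compared or after removal of the GC and length trend, and 0 to 3 without single libraries. The cause was not tested. Upper-quartile scaling moved the share of higher genes among all called genes with full-length NfL from 56.4% to 45.8%, and the replicate block moved it to 48.9%. The replicate block changed no other call of a synthetase gene than those given. No synthetase gene was called with coiled-coil NfL under any of these settings, and no called change reversed. The exons of 12 of the 35 genes overlap a gene on the opposite strand, the most in Iars2 (22.9%), Farsb (9.47%), Fars2 (8.72%), Vars2 (8.52%) and Hars (7.97%), and their counts are uncertain if counting ignored strand. The lowest count of any synthetase gene in a library was 106, in Ears2.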

Other observations

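Of 9 genes of cytosolic elongation and release, 4 were higher with full-length NfL than in vehicle and 0 lower (median log2 change 0.17), beside 14% higher and 10.9% lower of all genes tested; the block gave 4 higher and 1 lower. Eif5a, a factor that helps ribosomes through difficult peptide bonds, rose by 0.60 ± 0.11 (log2, SE; edgeR adjusted p 0.00333), the release factor genes Gspt1 and Etf1 by 0.32 ± 0.07 and 0.29 ± 0.07 (adjusted p 0.00782 and 0.0154), and Eef1g, a subunit of the factor that reloads eEF1A, by 0.37 ± 0.10 (adjusted p 0.0161). Of 5 tested genes that remove mischarged or stalled tRNA products, 0 were called by edgeR (0 also at an unadjusted p under 0.05 and by DESeq2), and Dtd1 had the smallest p at −0.32 ± 0.17 (adjusted p 0.183).

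Lars2 alone held 11.6% to 29.6% of all synthetase counts, far above the other mitochondrial enzymes per length. Among genes that carry ribosomal RNA sequence, Gm42418 was at 0.91 to 3.12 CPM and mt-Rnr2 at no more than 0.377 CPM in these libraries. What share of the Lars2 count is Lars2 mRNA was not tested.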
